A study of Mus musculus with 3 samples.

Results

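The genes described here encode the subunits of the constitutive proteasome, its assembly chaperones and its activators, in 3T3-L1 cells, an established mouse line of preadipocytes that turn into lipid-filled adipocytes after hormonal induction. They were chosen by symbol, as every gene whose symbol begins with Psm, has 1 of the letters a to g next and ends in a number, except the immunoproteasome subunits Psmb8, Psmb9 and Psmb10. This gave 45 genes with 56 probes, of 20142 named genes with values on all arrays and 39429 probes. The cells were sampled on days 2, 8 and 20 after induction of differentiation, without any other treatment in the labels, and the series addresses gene expression as adipocytes enlarge. Each day was measured on 1 Agilent 1-colour array of total RNA, without replicates. No difference could be tested, and every statement of higher or lower compares 2 arrays. All 3 arrays came from 1 line on 1 slide, and the labels do not say how many cultures each RNA came from.

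The proteasome is the large protease that degrades proteins tagged with ubiquitin. Its core particle is a barrel of alpha and beta rings, with the proteolytic sites on the inside faced by the beta subunits Psmb5, Psmb6 and Psmb7. A regulatory particle caps the core: its base holds a ring of ATPases that unfold the substrate, and its lid removes the ubiquitin chain. Separate activators can take the place of this cap, dedicated chaperones build both particles, and the transcription factor NRF1 (Nfe2l1) is known to raise most of these genes together when proteasome activity is short.

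Levels are given as log2 of the processed intensity minus the 75th percentile of that array's non-control probes, so that a level of 0 is the brightness at that percentile. A level depends on the probe as well as on the transcript, and levels of different genes were used only to group probes by brightness, not compared as amounts of transcript. The error beside a difference is a technical SD from probes printed 10 times on each array; it had a median of 0.069 over the genes on day 8 against day 2 and 0.072 on day 20 against day 8, and does not include the spread between cultures. Of the 45 genes, 43 were well above background on all 3 arrays. Psma8, the testis form of an alpha subunit, was well above background on none, at -5.74, -5.95 and -6.66 on days 2, 8 and 20. Psmb11, the thymus form of a beta subunit, did not reach well above background on day 2 and barely did later, at -5.48, -5.32 and -5.28.

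Between 55.3% and 56.9% of the 43020 non-control spots were well above background on each array, 0 were saturated, and the 75th percentile of intensity was 662, 636 and 927 on days 2, 8 and 20. Of 12 adipocyte markers fixed for checking the cells, 12 were well above background on all 3 arrays. On day 8 against day 2, 10 were higher and 2 lower, where 53.6% of all measured genes were lower. The median of the 12 was 0.91, from -0.40 for Cebpa to 6.46 for Cfd. Adipoq, which encodes adiponectin, was 3.83 higher on the log2 scale. On day 20 against day 8, 8 of 12 were lower as reported, as were 55.1% of all measured genes. Adipoq was among the 8, at -0.72. The summed relative signal of the adipocyte list was 848, 1890 and 1310 on days 2, 8 and 20. Of 9 macrophage markers on the array, 3 were well above background on all 3 arrays, while Adgre1, Ptprc, Cd163, Mrc1 and Lyz2 were so on none; the summed relative signal of the list was 8.96, 10.5 and 5.01 on days 2, 8 and 20. Proliferation markers were lower as well: 10 of 10 were at least 2-fold lower on day 8 than on day 2, against 12.9% of all measured genes. Their median was -4.84, and their summed relative signal was 201, 15.7 and 19.9 on days 2, 8 and 20. Their part in the differences below was not tested, and in these whole cultures, fewer cells of a kind and less RNA per cell cannot be told apart.

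Almost the whole constitutive proteasome was lower on day 8 than on day 2. Of 43 measured genes, 39 were lower and 4 higher, with a median log2 difference of -0.93, against -0.06 over all 12044 measured genes. At least 1.5-fold lower were 32 of 43 (74.4%), against 25.3% of all measured genes, and 18 were at least 2-fold lower (11 after quantile normalisation or cyclic loess), against 12.9% of all genes. Counting the core, base and lid subunits alone, 31 of 31 were lower, 27 of them at least 1.5-fold and 17 at least 2-fold, whereas 53.6% of all genes were lower by any amount. These 31 stayed lower under all 10 other ways of processing the arrays. Psme1 stood apart as the only gene of the family that was at least 1.5-fold higher, a call made for 22.6% of all genes (13.8% at 2-fold).

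**Figure D1:**
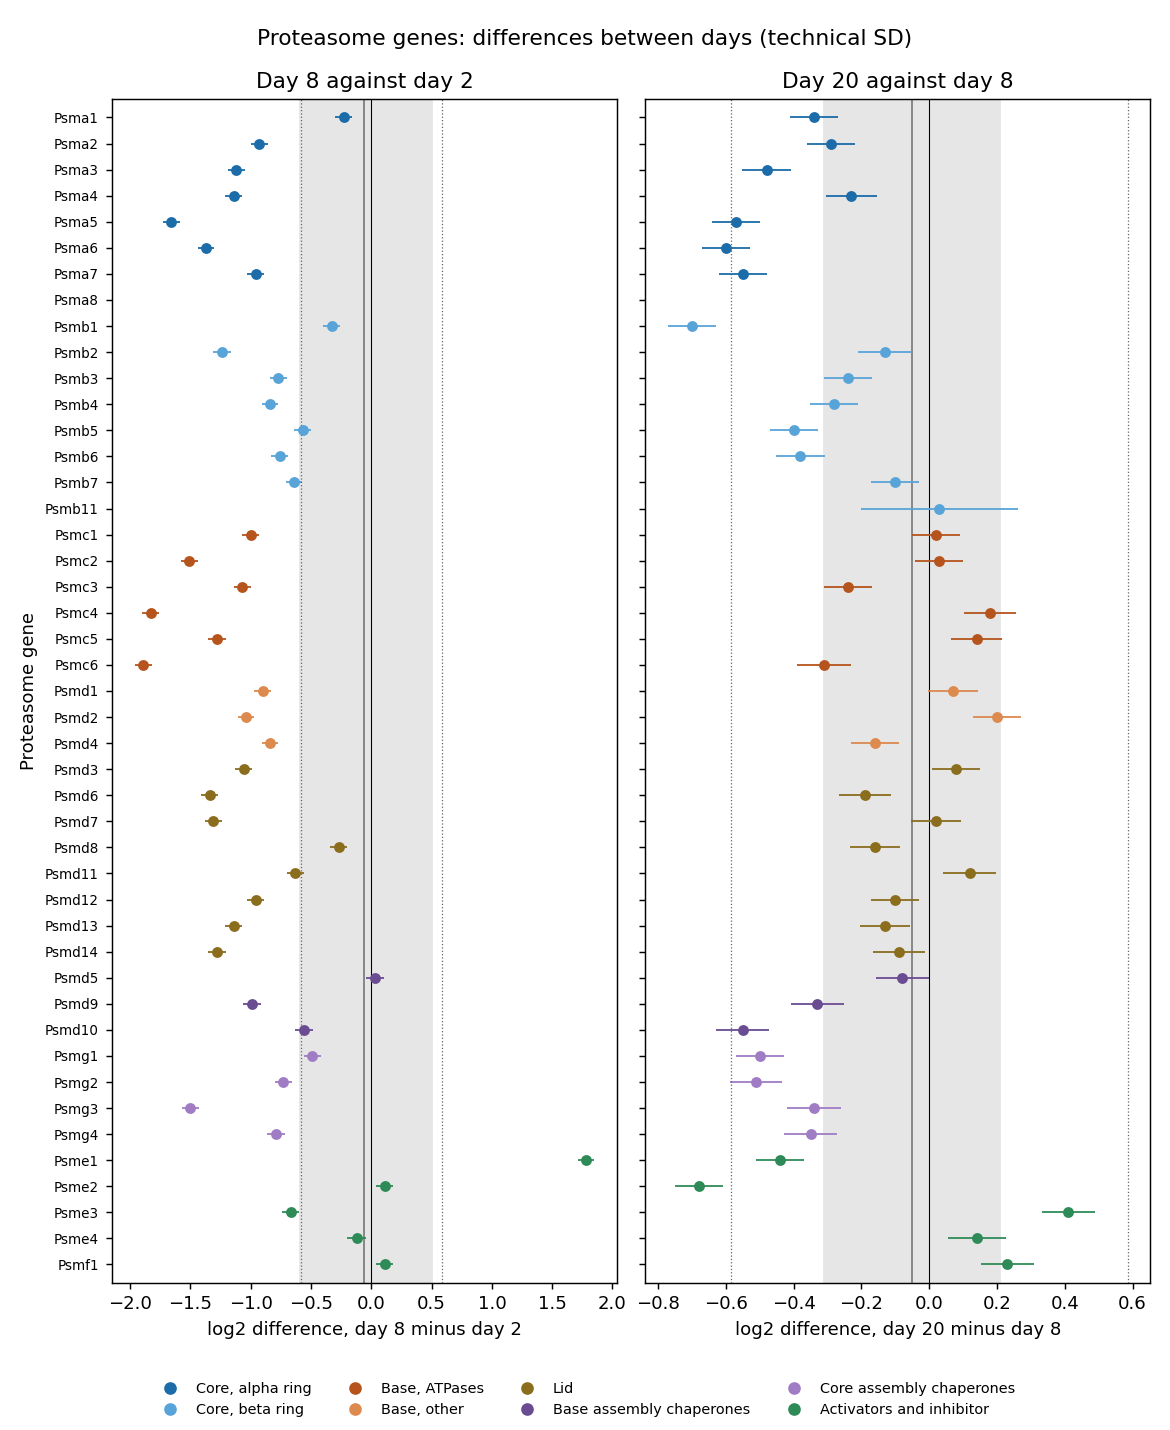
Log2 difference of each proteasome gene, day 8 minus day 2 (left) and day 20 minus day 8 (right, on a narrower scale), coloured by role; bars are 1 technical SD either way. The grey band and line are the interquartile range and median of all measured genes, and dotted lines mark 1.5-fold: on day 8 against day 2 most points lie left of the dotted line, Psme1 lies far right at 1.78, and on day 20 against day 8 only Psmb1, Psme2 and Psma6 pass it.

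Promoter sequences, from 250 bases before to 50 bases after the transcription start, were taken from RefSeq (GRCm38.p6) for 37 of the 45 genes. Psma8, Psmb1, Psmb2, Psmb7, Psmc3, Psmd3, Psmd7 and Psmg2 had no entry. They were searched on both strands for the core of the antioxidant response element, TGACNNNGC, which NRF1 and NRF2 bind, where N is any base. It was found in 6 of the 37 genes (16.2%), namely Psmb5, Psmb6, Psmc6, Psmd9, Psmd12 and Psme4, and in 14.0% of 27025 genes in the table. Those of Psmb5, Psmb6 and Psmc6 are shown because they belong to catalytic subunits and to the ATPase with the lowest difference on day 8, and that of Psme1 because this activator went the opposite way. Capitals mark the matched element, and each promoter reads 5′ to 3′ on the strand of its gene.
Psmb5: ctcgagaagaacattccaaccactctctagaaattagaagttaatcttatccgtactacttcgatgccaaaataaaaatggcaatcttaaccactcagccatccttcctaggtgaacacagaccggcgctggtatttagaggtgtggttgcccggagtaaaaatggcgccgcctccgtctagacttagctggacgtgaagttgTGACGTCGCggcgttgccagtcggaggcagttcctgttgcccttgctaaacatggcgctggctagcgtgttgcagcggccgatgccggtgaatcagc
Psmb6: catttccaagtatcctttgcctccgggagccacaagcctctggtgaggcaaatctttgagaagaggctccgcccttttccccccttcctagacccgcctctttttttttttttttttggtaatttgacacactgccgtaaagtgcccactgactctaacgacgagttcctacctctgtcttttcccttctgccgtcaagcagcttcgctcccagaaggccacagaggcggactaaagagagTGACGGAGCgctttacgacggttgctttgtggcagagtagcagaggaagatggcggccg
Psmc6: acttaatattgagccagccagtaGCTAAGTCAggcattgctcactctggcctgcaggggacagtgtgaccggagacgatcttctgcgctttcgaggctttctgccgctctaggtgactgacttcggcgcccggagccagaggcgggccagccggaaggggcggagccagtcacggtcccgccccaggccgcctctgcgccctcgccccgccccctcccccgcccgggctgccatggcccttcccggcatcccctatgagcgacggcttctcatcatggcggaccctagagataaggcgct
Psme1: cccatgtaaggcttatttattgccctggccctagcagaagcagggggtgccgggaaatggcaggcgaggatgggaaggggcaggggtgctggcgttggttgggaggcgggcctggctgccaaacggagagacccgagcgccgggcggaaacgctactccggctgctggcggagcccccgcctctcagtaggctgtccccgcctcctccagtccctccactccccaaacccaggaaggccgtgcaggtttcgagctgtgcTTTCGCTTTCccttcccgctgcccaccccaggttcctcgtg
The Psmb5 promoter lies at chr14:54617946-54618245 on the minus strand, with the element starting 47 bases before the transcription start. That of Psmb6 lies at chr11:70525107-70525406 on the plus strand, with the element 9 bases before the start. In Psmc6, at chr14:45329574-45329873 on the plus strand, the element begins 227 bases before the start and reads on the opposite strand. The Psme1 promoter, at chr14:55578244-55578543 on the plus strand, holds instead a core of the interferon-stimulated response element on the opposite strand and 9 bases after the start. None of these 4 elements overlapped a match to another motif searched.

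The interferon-stimulated response element core was found in 5 of the 37 genes (13.5%), namely Psmb3, Psmd4, Psmd9, Psme1 and Psmg4, against 4.0% of genes in the table. Of these genes only Psme1 was higher on day 8 than on day 2, at 1.78. The others were lower: Psmb3 (-0.77), Psmd4 (-0.84), Psmd9 (-0.99) and Psmg4 (-0.79). An AP-1 site, TGANTCA, which can overlap the antioxidant element, was present in Psmb5 and Psmd9 (5.4%, against 9.0% of genes). Psmd2 and Psmg1 held a gamma-activated site, TTCNNNGAA (5.4%, against 9.6%), and 13 genes held a CCAAT box (35.1%, against 41.1%). For the antioxidant response element, the median difference on day 8 against day 2 was -0.86 over the 6 genes with it and -0.92 over 30 measured genes without it. On day 20 against day 8 the medians were -0.32 over the 6 genes with the antioxidant element and -0.19 over 31 genes without it. A match describes letters in this window and shows no binding.

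The 7 measured alpha subunits, which form the gated outer rings of the core, were all lower on day 8 than on day 2, 6 of them at least 1.5-fold, with a median of -1.12. Psma5 had levels of 6.95, 5.30 and 4.72 on days 2, 8 and 20, and was 3.15-fold lower on day 8 than on day 2 (log2 difference -1.66). Psma6 followed at 6.71, 5.35 and 4.75, a 2.58-fold lower signal on day 8. Both were lowest on day 20. Psma4, at 4.34, 3.19 and 2.96, was 2.21-fold lower on day 8 than on day 2, and Psma3, at 6.97, 5.86 and 5.37, was 2.17-fold lower. Close to 2-fold were Psma7, at 7.03, 6.07 and 5.52, and Psma2, at 7.18, 6.24 and 5.95. Psma1 was the exception in this ring: its levels were 6.82, 6.59 and 6.25, and its difference of -0.23 on day 8 exceeded its technical SD but not 1.5-fold.

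The beta subunits, which form the inner proteolytic rings, were lower by less, with a median of -0.76 over 7 measured genes and 5 of the 7 at least 1.5-fold lower on day 8 than on day 2. The catalytic subunit Psmb5, which carries the chymotrypsin-like activity, had levels of 7.55, 6.98 and 6.58 on days 2, 8 and 20, and its difference of -0.57 on day 8 against day 2 lay just short of 1.5-fold. Psmb6, the caspase-like subunit, had levels of 7.25, 6.48 and 6.10 and was 1.70-fold lower on day 8. Psmb7, the trypsin-like subunit, had levels of 4.91, 4.26 and 4.17 and was 1.56-fold lower on day 8. All 3 catalytic subunits thus differed by between -0.57 and -0.76, less than the median of the alpha ring. Among the subunits without a proteolytic site, Psmb2 was the lowest, at 2.61, 1.36 and 1.23, a 2.37-fold lower signal on day 8. Psmb4, at 6.88, 6.04 and 5.77, and Psmb3, at 6.95, 6.18 and 5.94, were 1.79-fold and 1.70-fold lower. Psmb1 was the least different on day 8, at 5.84, 5.51 and 4.81, with a difference of -0.33.

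The base ATPases, the motor ring of the regulatory particle, had the lowest median of the 8 role classes, -1.39, and 6 of 6 were at least 2-fold lower on day 8 than on day 2 (4 of 6 after quantile normalisation, cyclic loess or spike-in scaling). Psmc6, whose promoter is shown above, had levels of 3.92, 2.04 and 1.73 on days 2, 8 and 20, and its 3.70-fold lower signal on day 8 (log2 difference -1.89) was the lowest of the family. Psmc4 was close to it, at 4.59, 2.76 and 2.94, 3.55-fold lower on day 8 than on day 2. Psmc2, at 6.54, 5.03 and 5.06, was 2.85-fold lower on day 8. For Psmc4 and Psmc2 the day 20 level was slightly above that of day 8. Psmc5, at 4.44, 3.16 and 3.30, was 2.43-fold lower on day 8, Psmc3, at 7.19, 6.12 and 5.89, 2.10-fold, and Psmc1, at 5.76, 4.76 and 4.78, 2.00-fold.

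The other base subunits are scaffolds and ubiquitin receptors, and 3 of 3 were at least 1.5-fold lower on day 8 than on day 2. Psmd2, the scaffold that docks ubiquitin-like domains, had levels of 5.59, 4.55 and 4.75 and was 2.06-fold lower on day 8. Psmd1, the other large scaffold, had levels of 4.75, 3.84 and 3.92, and Psmd4, a ubiquitin receptor, had levels of 6.36, 5.52 and 5.36; their differences on day 8 were -0.90 and -0.84. In the lid, 7 of 8 subunits were at least 1.5-fold lower, with a median of -1.10. Psmd14, the deubiquitinase of the lid, had levels of 4.20, 2.92 and 2.83, 2.43-fold lower on day 8. Psmd6, the lowest of the lid, stood at 4.31, 2.97 and 2.78, and Psmd7, the inactive partner of Psmd14, at 4.41, 3.10 and 3.12. These structural and catalytic lid subunits therefore had similar differences of -1.34, -1.31 and -1.28. Psmd13 (4.57, 3.44 and 3.31), Psmd3 (5.73, 4.67 and 4.75) and Psmd12 (5.75, 4.78 and 4.69) lay between -1.14 and -0.96 on day 8, and Psmd11, at 2.78, 2.15 and 2.27, at -0.63. Psmd8, at 3.59, 3.33 and 3.17, was the exception of the lid, with a difference of -0.27.

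**Figure D2:**
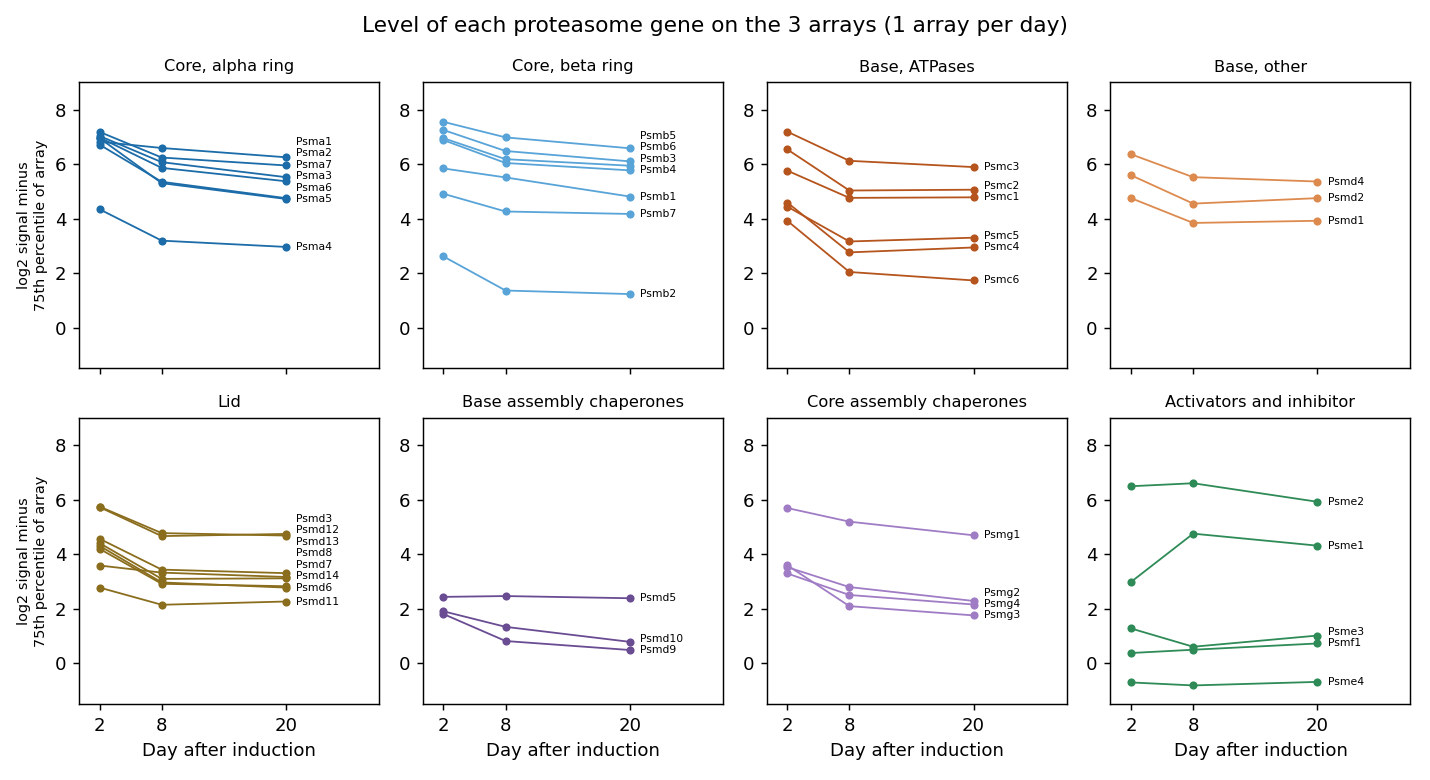
Level of each proteasome gene well above background on all 3 arrays (log2 signal minus the array's 75th percentile) on days 2, 8 and 20, with days spaced in time and 1 panel per role class; each point is 1 array. The lines of the core, base and lid drop to day 8, the core lines drop further to day 20 while most base and lid lines are flat, and Psme1 stands at 4.76 on day 8 against 2.99 on day 2.

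The assembly chaperones were lower as a group, with more spread. The core chaperones had a median of -0.76, and 3 of 4 were at least 1.5-fold lower on day 8 than on day 2. Psmg3, at 3.60, 2.10 and 1.76 on days 2, 8 and 20, was 2.82-fold lower on day 8. Psmg4 had levels of 3.30, 2.51 and 2.16, Psmg2 of 3.53, 2.80 and 2.29, and Psmg1, the partner of Psmg2, of 5.70, 5.20 and 4.70. Of these, Psmg1 was the least different on day 8, at -0.49. Among the base chaperones, which guide the ATPase ring together, Psmd9 was 1.99-fold lower on day 8, at 1.81, 0.82 and 0.49. Psmd10, also known as gankyrin, had levels of 1.91, 1.34 and 0.79 and a difference of -0.56. Psmd5 had nearly the same level on each day, 2.44, 2.47 and 2.39, and its difference of 0.03 on day 8 against day 2 lay within its technical SD.

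The activators and the inhibitor Psmf1 together had a median difference of 0.11 on day 8 against day 2 over 5 genes, with 3 higher and 2 lower. Psme1 encodes one subunit of the interferon-inducible activator PA28 and had levels of 2.99, 4.76 and 4.32 on days 2, 8 and 20. It was 3.43-fold higher on day 8 than on day 2 (log2 difference 1.78), and between 1.67 and 1.96 under the other ways of processing. Psme2, its partner subunit, had levels of 6.50, 6.61 and 5.93 and a difference of 0.11 on day 8, short of 1.5-fold. A second probe of Psme2 gave differences of 0.31 on day 8 and -0.63 on day 20. The mouse genome also holds Psme2b, a close copy of Psme2 with no probe of its own here, and which copy the Psme2 probes read is uncertain. Psme3, the nuclear activator, had levels of 1.28, 0.61 and 1.02 and was 1.59-fold lower on day 8. Psme4, the large activator PA200, had levels of -0.70, -0.81 and -0.68 by the brighter of its 2 probes and of -1.44, -1.88 and -1.99 by the other, and the inhibitor Psmf1 had levels of 0.38, 0.50 and 0.73.

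Beside Psme1, the immunoproteasome subunits that replace the catalytic ones under interferon were also higher on day 8 than on day 2. Psmb9, dim on day 2, was 5.32 higher on the log2 scale (3.49 after normexp background correction), and Psmb10 was 0.93 higher. Psmb8, not well above background on day 2, was at least 40.1-fold higher, a bound given for the reported background correction only. The constitutive subunits that they replace, Psmb6, Psmb7 and Psmb5, were each lower. On day 20 against day 8, Psmb8 was 2.13 higher and Psmb9 2.08 higher, while Psmb10 was at -0.34 and Psme1 at -0.44 (0.34 and 0.24 on the spike-in scale).

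On day 20 against day 8 the family differed less. Of 44 measured genes, 31 were lower, as were 55.1% of all genes, and 13 were higher, with a median of -0.21, against -0.05 over all 12321 measured genes. At least 1.5-fold lower were 3 of 44, a share below the 8.94% of all genes, namely Psmb1 (-0.70), Psme2 (-0.68) and Psma6 (-0.60); 0 were at least 1.5-fold higher, against 8.43% of all genes. At 2-fold, 0 were lower and 0 higher, against 1.74% and 3.58% of all genes. Psma5 lay just outside at -0.57. This comparison and the preceding one share the day 8 array.

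The core particle was lower on day 20 than on day 8 in 14 of 15 measured genes, against 55.1% of all genes. Its median was -0.34, and base and lid had 8 of 17 lower and a median of 0.02. Both medians depended on the scaling: that of the core was 0.08 after quantile normalisation, 0.05 after cyclic loess and 0.34 after scaling on spike-in controls, which moved the median of all genes to 0.63. Under the same 3 settings the base and lid median was 0.20, 0.24 and 0.70, with 4, 1 and 0 of the 17 genes lower. The median of all genes was 0.04, 0.10 and 0.63. On the spike-in scale 10 of the 17 were at least 1.5-fold higher, but there the median of all genes was itself past 1.5-fold. Within the core, the alpha ring had a median of -0.48, from -0.60 for Psma6 to -0.23 for Psma4, and the beta ring -0.26, from -0.70 for Psmb1 to 0.03 for the dim Psmb11. The catalytic subunits were at -0.40 for Psmb5, -0.38 for Psmb6 and -0.10 for Psmb7; Psmb5 turned to 0.12 and 0.07 under quantile normalisation and cyclic loess. Among base and lid, Psmc6 was the lowest at -0.31 and Psmd2 the highest at 0.20, and the lid ranged from -0.19 for Psmd6 to 0.12 for Psmd11.

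Taking the 14 core subunits well above background on all 3 arrays and the 17 base and lid subunits, all 14 core differences on day 20 against day 8 lay below the median of base and lid. They ran from -0.70 to -0.10 in the core and from -0.31 to 0.20 in base and lid, so the ranges overlapped: 8 core genes lay below every base and lid gene, and 12 genes lay in the shared range. The difference of the medians was -0.38 for these genes, and -0.36 with Psmb11 included. With Psmb11 included, it was -0.12 after quantile normalisation and -0.18 after cyclic loess. Spike-in scaling, median scaling and the series table shift each array by a constant, so they could not change it and left it at -0.36. Under the remaining alternatives it lay between -0.38 and -0.32. On day 8 against day 2 the order was the other way, with medians of -0.89 in the core and -1.07 in base and lid.

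The core probes were brighter at the median than those of base and lid, at a mean level of days 8 and 20 of 5.7 against 3.37. Over all measured genes, the median on day 20 against day 8 was -0.07 at levels from 2 to 4, -0.31 from 5 to 6 and -0.52 at 6 or above, taking the mean level of both days. Of the core genes, 6 lay between 5 and 6, with a median of -0.56, and 5 at 6 or above, with a median of -0.34. Within the core, the brighter of these 2 groups was thus the less lowered, unlike over all genes. The core gene between 4 and 5 was at -0.10. Of the base and lid probes, 9 lay between 2 and 4, with a median of 0.02, and 4 between 4 and 5, with a median of 0.05. Another 2 lay between 5 and 6, with a median of -0.06, and 1 lay at 6 or above, at -0.24. The part of brightness in the difference between the particles was not tested.

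**Figure D3:**
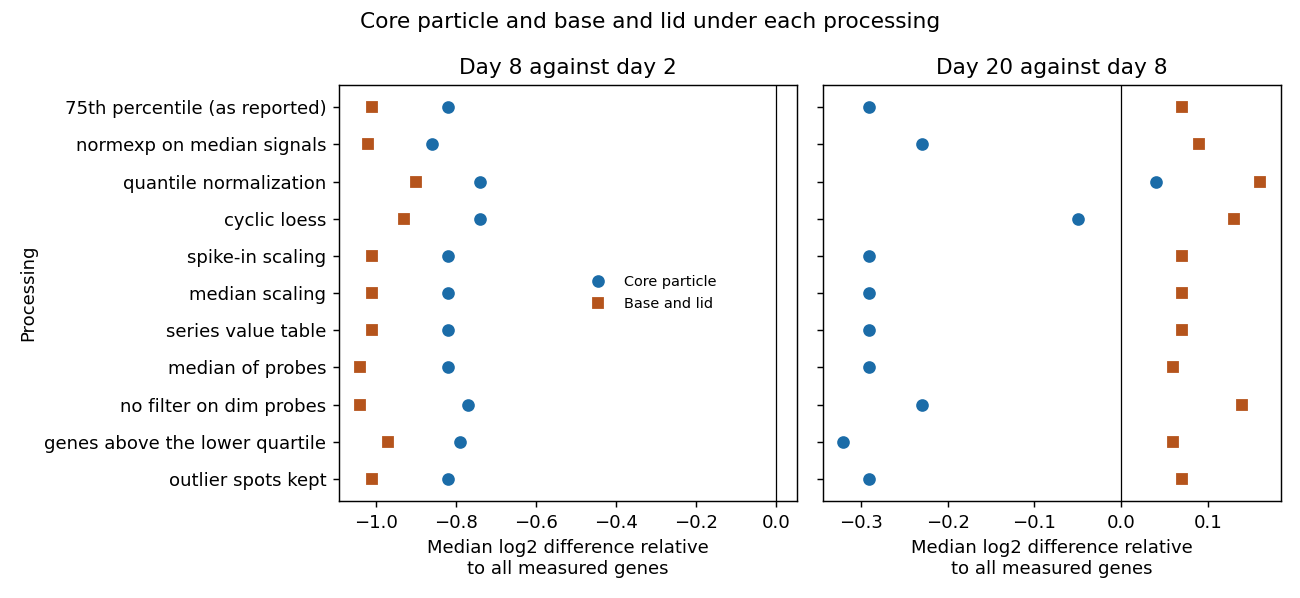
Median log2 difference of the core particle (circles) and of base and lid (squares), after subtracting that of all genes measured, under the reported scaling and 10 alternatives, for day 8 minus day 2 (left) and day 20 minus day 8 (right, on a narrower scale). On day 8 against day 2 all points lie far below 0. On day 20 against day 8 the core lies at -0.29 as reported, at 0.04 after quantile normalisation and at -0.05 after cyclic loess. Spike-in scaling, median scaling and the series table shift each array by a constant and cannot move these points.

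All 7 assembly chaperones were lower on day 20 than on day 8, as were 55.1% of all genes. After cyclic loess 6 of 7 were lower, and on the spike-in scale 0. Their median was -0.35 as reported, -0.31 after quantile normalisation and -0.19 after cyclic loess but 0.32 on the spike-in scale. Psmd10 was the lowest at -0.55 and Psmd5 the least different at -0.08. For the core chaperones the range was narrow, from -0.51 for Psmg2 to -0.34 for Psmg3. The PA28 subunits were lower on day 20 as reported, Psme1 at -0.44 and Psme2 at -0.68 (0.24 and 0.00 on the spike-in scale), while Psme3 was the highest gene of the family at 0.41, Psmf1 stood at 0.23 and Psme4 at 0.14. For Psme4 another probe gave -0.12, the opposite side. Over the 11 genes with more than 1 probe, the probes were on the same side of 0 for 11 on day 8 against day 2 and for 10 on day 20 against day 8.

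Set against day 2 directly, day 20 showed 40 of 43 genes lower, as were 56.4% of all genes, with a median of -1.12 against -0.14 for all genes. At least 1.5-fold lower were 34 of 43, against 31.1% of all genes, and at least 2-fold lower were 26 of 43, against 17.0%. After quantile normalisation, cyclic loess and spike-in scaling, in this order, the 1.5-fold count was 22, 21 and 12, the 2-fold count was 13, 9 and 4, and the median was -0.64, -0.55 and -0.36. Psma5 was 4.69-fold lower (log2 difference -2.23), Psmc6 4.59-fold, Psma6 3.91-fold and Psmg3 3.57-fold. The core had a median of -1.19 and base and lid -1.14, so the particles were close on day 20 against day 2. The core median lay 0.12 above that of base and lid after quantile normalisation and 0.13 above it after cyclic loess. Psme1 was higher, at 1.34, and the only gene of the 43 at least 1.5-fold higher as reported, against 24.0% of all genes (15.5% at 2-fold). On the spike-in scale 4 of the 43 were at least 1.5-fold higher, where the median of all genes was 0.61, itself past 1.5-fold.

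Other genes of the pathway were compared by lists. The 10 partners of the proteasome, which include the maturation factor Pomp and the lid subunit Sem1, had a median of -0.64 on day 8 against day 2, and 5 of 10 were at least 1.5-fold lower, against 25.3% of all measured genes: Uchl5 (-1.08), Ube3c (-1.07), Pomp (-1.03), Txnl1 (-0.95) and Sem1 (-0.70). On day 20 against day 8 their median was -0.03 and 0 passed 1.5-fold, against 8.94% of all genes lower and 8.43% higher. The 13 genes for ubiquitin supply and shuttling had a median of -0.21 on day 8 against day 2, and the shuttles Ubqln1 (-1.39) and Rad23b (-0.78) and the ubiquitin fusion gene Rps27a (-0.63) were among those at least 1.5-fold lower. On day 20 against day 8 their median was 0.09, with Rps27a lower (-0.74) and Ubqln2 higher (0.61). The NRF1 list of 10 genes had a median of -0.06 on day 8 against day 2, with Ddi2, the protease that activates NRF1, at -1.42 and Maff at 3.24. Nfe2l1 itself was 0.18 higher on day 8 than on day 2 and 0.77 higher on day 20 than on day 8. On day 20 against day 8, 9 of the 10 were higher, as were 5529 of 12321 measured genes. Only 2 of the 10, Nfe2l1 and Maff (0.61), passed 1.5-fold, against 8.43% of all genes.

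Other large complexes were also lower on day 8 than on day 2. The CCT chaperonin, which folds actin and tubulin, had 8 of 8 subunits at least 1.5-fold lower and a median of -1.04, from -1.54 for Cct3 to -0.78 for Cct5, which is the same median as that of the 31 core, base and lid subunits. The COP9 signalosome, whose architecture resembles the lid, had a median of -0.64 with 6 of 10 at least 1.5-fold lower, against 25.3% of all genes, and Cops7b lowest at -1.19. The translation factor eIF3, which shares that architecture, had a median of -0.58 with 6 of 13 at least 1.5-fold lower, against the same 25.3%, and Eif3j1 lowest at -1.33 and Eif3f higher at 0.61. On day 20 against day 8 the medians of the chaperonin, eIF3 and COP9 were -0.38, -0.34 and -0.30, with Eif3h (-0.66), Cct4 (-0.65), Cct5 (-0.65), Cops9 (-0.62) and Eif3i (-0.59) past 1.5-fold, a call made for 8.94% of all genes. On the spike-in scale these 3 medians lay above 0, as did the median of all genes.

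**Figure D4:**
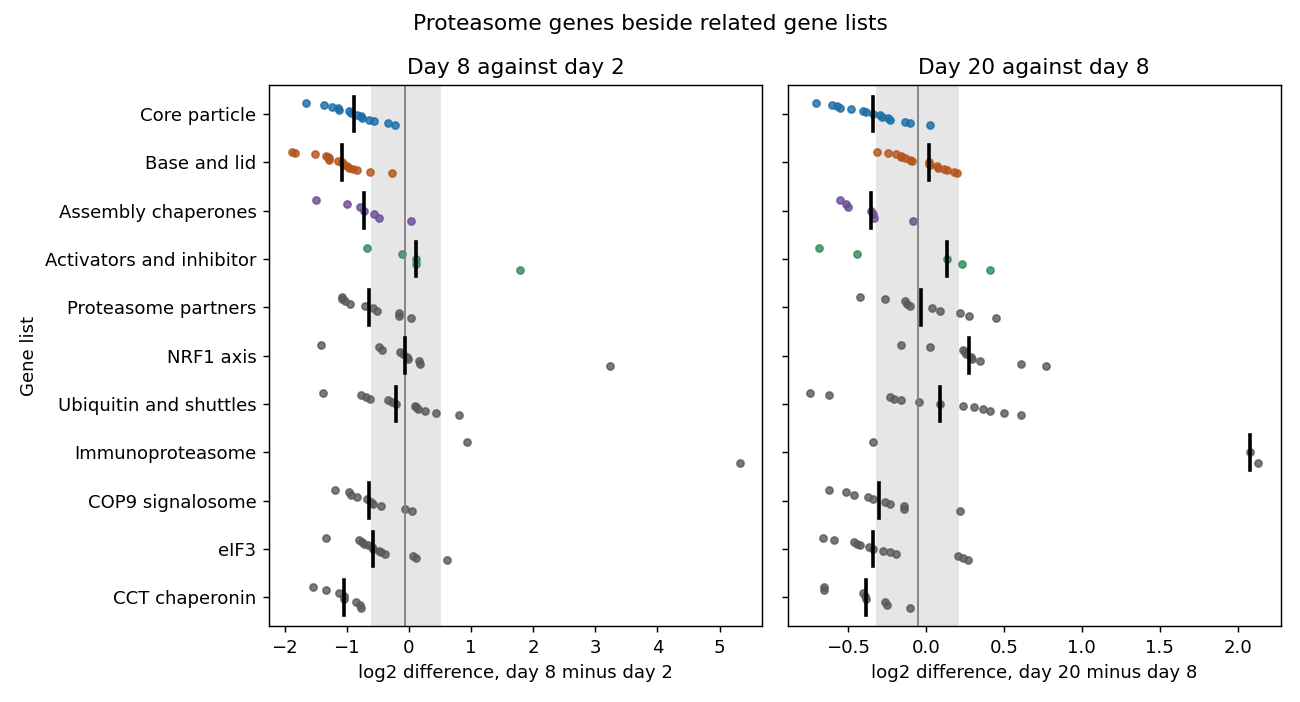
Log2 difference of each measured gene in the proteasome classes (coloured) and in related lists (grey), day 8 minus day 2 (left) and day 20 minus day 8 (right, on a narrower scale); black ticks are medians of lists with at least 3 measured genes, and the grey band and line are the interquartile range and median of all measured genes. The medians of the core, base and lid and the CCT chaperonin lie left of the band on day 8 against day 2, at -0.89, -1.07 and -1.04. Those of the assembly chaperones, partners and COP9 signalosome also lie left of it, at -0.73, -0.64 and -0.64, while the NRF1 list is centred on -0.06.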

How the data were processed

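Per the file headers, the deposited intensity values are linear spot brightness, with the background already removed from the processed intensity by the scanner's software; the submitters' processing notes give Agilent Feature Extraction 10.7.1.1. The series table's deposited log2 values, used as an alternative, differ from log2 processed intensity by a constant on each array (99.7% of probes agree within 0.01), and their medians were -4.80, -4.69 and -4.89 on days 2, 8 and 20. Here, controls and outlier spots were dropped and repeat spots averaged, and log2 processed intensity was taken minus each array's 75th percentile. Of 39429 probes, 26581 were named by RefSeq accession through a GRCm38.p6 gene table, and a gene took its brightest probe. The array design was annotated on an earlier mouse build, per the file headers, so probe coordinates were not used. A difference was measured where both arrays had the probe well above background. For Psmb8, dim on day 2, the lowest signal well above background on that array set the bound. The scripts ran in Python 3.11.15 (numpy 2.4.6, pandas 2.3.3, matplotlib 3.10.9) and R 4.3.3 (limma 3.58.1) and were tested on simulated data. Precision is limited by there being 1 array per day.

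The members and lists were chosen with earlier results of these data known. Values were given for every family member measured; genes of other lists were named from those past 1.5-fold, at most 4 in each direction and list, and some genes of the ubiquitin list are not reported here. The alternatives were normexp background correction, quantile, cyclic loess, spike-in and median scaling, the series table, the median over probes, no filter or a stricter one on dim probes, and outlier spots kept. The normexp correction used the median spot signal in place of the planned mean signal, a choice made after seeing the data.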

Additional observations from a re-analysis of the deposited data

How the results depend on the processing

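No paired analysis was possible because each day had 1 array. The direction on day 8 against day 2 held under all 10 alternatives for the medians of the whole family, of the core and of base and lid, and 26 to 35 genes were at least 1.5-fold lower. Relative to all measured genes, the family median of -0.87 was -0.73 after quantile normalisation and -0.79 after cyclic loess; that of the core, -0.82, was -0.74 after either; and that of base and lid, -1.01, was -0.90 and -0.93. Day 20 against day 8 depended on the scaling. The family median of -0.16 was 0.05 after quantile normalisation and -0.01 after cyclic loess, and the core median of -0.29 was 0.04 and -0.05. For base and lid, 0.07 was 0.16 after quantile normalisation and 0.14 with no filter on dim probes. The count of 3 genes at least 1.5-fold lower was 0 after quantile normalisation, cyclic loess, spike-in and median scaling. The count of 0 at least 1.5-fold higher was 1 after median scaling. After spike-in scaling it was 15 of 44, where the median of all genes was itself past 1.5-fold higher. For all genes, the median on day 20 against day 8 was -0.05 as reported, 0.63 after spike-in scaling, 0.10 after cyclic loess and 0.15 after median scaling, and on day 8 against day 2 it was -0.06 as reported and -0.17 after median scaling. On the spike-in scale, 1 of 44 family members was lower on day 20 than on day 8, against 31 as reported, and 33 of 43 were lower on day 20 than on day 2, against 40. Among named genes past 1.5-fold as reported, signs turned there on day 20 against day 8 for Psma6 (0.08), Psme2 (0.00), Cops9 (0.06), Eif3h (0.02), Eif3i (0.09), Cct4 (0.03) and Cct5 (0.03), and on day 20 against day 2 for Psmb7 (0.01) and Txnl1 (0.03). The cause of these changes was not tested. The spread between cultures is unknown with single arrays, and Psma8 and Psmb11 lie at or near background.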
